A study of Arabidopsis thaliana with 12 samples.

Results

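The genes described here are 10 loci of aliphatic glucosinolate synthesis in Arabidopsis thaliana, taken by their locus identifiers from 34262 gene identifiers counted in each library. They comprise 3 transcription factors (MYB28, MYB29 and MYB76), 4 genes of methionine chain elongation (BCAT4, BAT5, MAM1 and MAM3) and 3 cytochrome P450 genes of the core pathway (CYP79F1, CYP79F2 and CYP83A1). Of these, 9 passed the filter on low counts and were tested, and MAM3 did not. RNA was sequenced from leaf 13 of rosettes aged 5 weeks, 1 h after the distal part of leaf 8 had been crushed with forceps, or from rosettes left unwounded. The 4 groups were wounded isi1-2, unwounded isi1-2, wounded WT and unwounded WT, with 3 replicates each and leaves of 2 plants pooled per replicate. The isi1-2 plants carry an insertion allele of ISI1, a gene named for impaired sucrose induction, in the Col-0 background, and WT is Col-0. The mutant line is SALK_014032, and a single allele thus stands for the loss of ISI1. All plants came from the same growth regime.

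Positions are those of the RefSeq assembly TAIR10.1. MYB28 (AT5G61420) lies at chr5:24689069-24691187 on the minus strand. MYB29 (AT5G07690) at chr5:2446669-2448584 and MYB76 (AT5G07700) at chr5:2450027-2451807 are plus-strand neighbours. BCAT4 (AT3G19710) lies at chr3:6846969-6849582 on the minus strand and overlaps an opposite-strand gene by 307 bases, and BAT5 (AT4G12030) lies at chr4:7210807-7213376 on the plus strand. MAM1 (AT5G23010) at chr5:7703041-7706973 and MAM3 (AT5G23020) at chr5:7718118-7721866 are both on the plus strand. CYP79F2 (AT1G16400) at chr1:5605044-5607498 and CYP79F1 (AT1G16410) at chr1:5608682-5612064 are plus-strand neighbours, and CYP83A1 (AT4G13770) lies at chr4:7990429-7992429 on the minus strand.

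Aliphatic glucosinolates are sulfur-rich defence compounds of the Brassicales that Arabidopsis makes from methionine. In chain elongation the methionine side chain is extended in the plastid, the core pathway turns the elongated amino acid into the thioglucoside, and later enzymes modify the side chain. MYB28, MYB29 and MYB76 are related R2R3-MYB activators of these steps, and the bHLH factors MYC2, MYC3 and MYC4 of jasmonate signalling are known to act together with them. When tissue is damaged, myrosinases cleave the stored glucosinolates, and jasmonate is the hormone of the systemic wound response in leaves.

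Library totals over genes ranged from 23307790 to 30747778 counts, where 3 counts correspond to 0.0995 to 0.126 CPM (counts relative to library size, scaled by the TMM method). ISI1 had 4, 1 and 1 counts in wounded isi1-2 and 1 count in each unwounded isi1-2 library, against 253 to 337 counts in wounded WT and 254 to 270 counts in unwounded WT. The leaf mesophyll markers RBCS1A, LHCB1.3 and CA1 summed to 43341 to 51428 CPM over the 12 libraries, and their change with wounding is given beside the vascular markers. The root and flower markers CASP1, COBL9, AP3 and AG together reached at most 2.06 CPM in any library. Replicate 1 of wounded WT and replicate 1 of unwounded WT stood apart for the genes described here, and the former also over all tested genes. All 9 tested members were at their highest in replicate 1 of each of these groups, so results are also given without both libraries. Replicate 2 of unwounded WT departed the other way, below its group mean for all 9.

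The MYB regulators moved in different directions within 1 h of wounding. MYB28 fell in both genotypes, MYB76 rose in both, and MYB29 did not pass the test in either. MYB28 had 23.8, 21.5 and 22.7 CPM in wounded isi1-2, against 68.9, 69.9 and 74.1 CPM in unwounded isi1-2. In WT it had 31.2, 22.8 and 25.1 CPM in wounded plants, against 89.3, 69.4 and 70.7 CPM in unwounded plants. The wounded and unwounded libraries of MYB28 were far apart in each genotype. Its log2 fold change was -1.65 in isi1-2 (SE 0.11; edgeR adjusted p = 2.74e-08) and -1.54 in WT (SE 0.11; edgeR adjusted p = 6.13e-08), a level 3.13-fold and 2.90-fold lower after wounding. In whole leaves, fewer cells of a type and less RNA per cell cannot be told apart.

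MYB76 was the least abundant of the 3 factors both before and after wounding. It had 9.72, 9.80 and 10.07 CPM in wounded isi1-2, against 4.19, 3.48 and 2.84 CPM in unwounded isi1-2. In WT it had 10.6, 9.69 and 8.43 CPM in wounded plants, against 4.44, 2.75 and 2.47 CPM in unwounded plants. Every wounded library lay above every unwounded library of its genotype. The log2 fold change of MYB76 was 1.49 in isi1-2 (SE 0.18; edgeR adjusted p = 3.67e-06) and 1.57 in WT (SE 0.18; edgeR adjusted p = 3.02e-06), or 2.81-fold and 2.97-fold higher.

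MYB29 stands next to MYB76 on chromosome 5 and did not share its change. MYB29 had 48.2, 43.0 and 39.6 CPM in wounded isi1-2, against 37.9, 38.8 and 36.1 CPM in unwounded isi1-2. In WT it had 50.1, 36.2 and 41.8 CPM in wounded plants, against 51.3, 34.9 and 41.5 CPM in unwounded plants. The groups overlapped in WT and lay narrowly apart in isi1-2. Its log2 fold change was 0.21 in isi1-2 (SE 0.14; edgeR adjusted p = 0.228) and 0.0041 in WT (SE 0.14; edgeR adjusted p = 0.984).

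Because of these opposite changes the composition of the trio shifted. Levels were compared between genes per kilobase of exon in the RefSeq annotation (CPM per kb). MYB28 made up 26.6% ± 1.24 of the summed level of the 3 factors in wounded isi1-2 and 59.9% ± 2.04 in unwounded isi1-2 (SD, n = 3 each). In WT its share was 30.1% ± 0.460 in wounded plants and 59.3% ± 1.91 in unwounded plants. MYB29 made up most of the sum after wounding, with 58.4% ± 2.25 in wounded isi1-2 and 36.3% ± 1.42 in unwounded isi1-2, and 55.7% ± 1.55 in wounded WT and 37.5% ± 1.93 in unwounded WT. The share of MYB76 was 15% ± 1.17 in wounded isi1-2 and 3.81% ± 0.762 in unwounded isi1-2, and 14.2% ± 1.81 in wounded WT and 3.16% ± 0.550 in unwounded WT. The summed level itself was 43.1 ± 2.75 CPM per kb in wounded isi1-2 and 59.9 ± 0.371 in unwounded isi1-2, and 44.2 ± 6.65 in wounded WT and 65.3 ± 10.9 in unwounded WT.

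**Figure D1:**
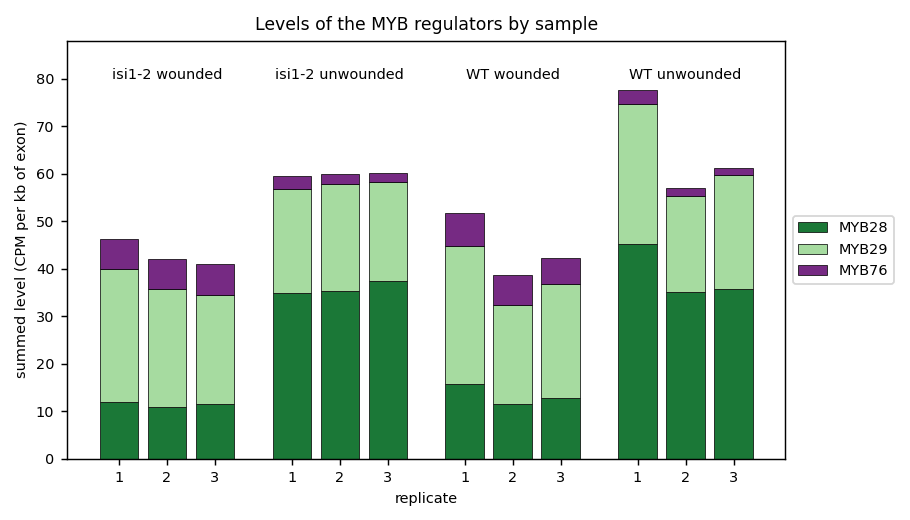
Stacked bars give the level of MYB28, MYB29 and MYB76 in each library in CPM per kb of exon, with wounded isi1-2, unwounded isi1-2, wounded WT and unwounded WT from left to right. MYB28 is the largest segment in every unwounded library and MYB29 in every wounded library, and the summed bars reach 38.7 to 51.6 in wounded and 57.1 to 77.6 in unwounded plants.

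The 300 bases before the annotated start of the 3 factors are shown because these related genes moved in different directions. They were read from the RefSeq assembly TAIR10.1 at chr5:24691188-24691487 (minus strand) for MYB28, chr5:2446369-2446668 (plus strand) for MYB29 and chr5:2449727-2450026 (plus strand) for MYB76. Each is printed 5′ to 3′ along the gene, and capitals mark matches to the searched motifs.
MYB28: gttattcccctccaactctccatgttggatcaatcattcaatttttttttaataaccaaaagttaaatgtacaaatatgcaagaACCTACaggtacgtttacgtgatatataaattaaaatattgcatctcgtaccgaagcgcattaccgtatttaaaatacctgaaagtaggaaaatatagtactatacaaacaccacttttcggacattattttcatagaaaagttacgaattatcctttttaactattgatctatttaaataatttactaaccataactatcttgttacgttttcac
MYB29: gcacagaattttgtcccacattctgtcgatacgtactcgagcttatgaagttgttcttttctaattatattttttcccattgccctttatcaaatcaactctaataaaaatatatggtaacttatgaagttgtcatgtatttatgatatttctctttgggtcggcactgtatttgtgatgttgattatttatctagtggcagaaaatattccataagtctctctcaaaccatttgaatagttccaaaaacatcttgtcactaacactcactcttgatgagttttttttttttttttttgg
MYB76: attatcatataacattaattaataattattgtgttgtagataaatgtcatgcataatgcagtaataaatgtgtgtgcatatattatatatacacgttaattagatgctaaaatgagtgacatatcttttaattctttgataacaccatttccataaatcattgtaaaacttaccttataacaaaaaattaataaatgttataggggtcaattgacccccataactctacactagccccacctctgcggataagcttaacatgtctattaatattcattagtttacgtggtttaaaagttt

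Windows were searched on both strands for CACGTG, the G-box known to be bound by MYC2, for its variant CACATG, and for ACCTAC and ACCAAC, hexamers of the AC elements known from R2R3-MYB factors. No match overlapped another. MYB28 held ACCTAC starting 216 bases before its start, and the windows of MYB29 and MYB76 held none of the 4 motifs. Among 27438 protein-coding genes, 5.42% of windows of this length held ACCTAC, 13.6% held ACCAAC, 7.09% held CACGTG and 13.1% held CACATG. Of the 10 members, 4 held ACCTAC (MYB28, BCAT4, CYP79F2 and CYP83A1), 2 held ACCAAC (BAT5 and CYP79F2), 1 held CACGTG (CYP83A1) and 0 held CACATG. These are matches of letters and not shown binding sites.

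Of the 4 chain elongation members, BCAT4 and BAT5 passed the test in at least 1 genotype. BCAT4, the aminotransferase that deaminates methionine, rose in both genotypes, and BAT5, the plastid transporter of the resulting 2-keto acids, rose in WT. BCAT4 had 101, 123 and 104 CPM in wounded isi1-2, against 43.1, 53.1 and 43.9 CPM in unwounded isi1-2. In WT it had 107, 77.6 and 92 CPM in wounded plants, against 68.6, 26.6 and 41.0 CPM in unwounded plants. The groups did not overlap in either genotype, but the unwounded WT libraries were widely spread. The log2 fold change of BCAT4 was 1.23 in isi1-2 (SE 0.29; edgeR adjusted p = 0.00708) and 1.02 in WT (SE 0.29; edgeR adjusted p = 0.0189). In WT the call was lost with only the WT libraries in the fit (adjusted p = 0.0726), without replicate 3 of unwounded WT (adjusted p = 0.0611) and without replicate 1 of wounded WT (edgeR adjusted p = 0.0624).

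BAT5 had 43.7, 39.4 and 43.9 CPM in wounded isi1-2, against 35.0, 32.2 and 28.2 CPM in unwounded isi1-2. In WT it had 66.9, 46.1 and 46.8 CPM in wounded plants, against 42.0, 29.3 and 32.8 CPM in unwounded plants. The wounded libraries lay above the unwounded ones in each genotype. Its log2 fold change was 0.41 in isi1-2 (SE 0.16; edgeR adjusted p = 0.0546), which missed the threshold, and 0.62 in WT (SE 0.16; edgeR adjusted p = 0.00848). In isi1-2 the call was gained with the replicate number as a block (edgeR adjusted p = 0.00218) and with DESeq2 (adjusted p = 0.0143), among other settings. The difference between the genotypes in this response was not called (interaction log2 -0.21, SE 0.23; edgeR adjusted p = 0.817).

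The windows before the starts of BCAT4 and BAT5 are shown because these are the members of chain elongation that rose. They lie at chr3:6849583-6849882 (minus strand) for BCAT4 and chr4:7210507-7210806 (plus strand) for BAT5 in TAIR10.1, and capitals mark ACCTAC in BCAT4, starting 115 bases before the gene, and ACCAAC on the opposite strand in BAT5, starting 19 bases before it.
BCAT4: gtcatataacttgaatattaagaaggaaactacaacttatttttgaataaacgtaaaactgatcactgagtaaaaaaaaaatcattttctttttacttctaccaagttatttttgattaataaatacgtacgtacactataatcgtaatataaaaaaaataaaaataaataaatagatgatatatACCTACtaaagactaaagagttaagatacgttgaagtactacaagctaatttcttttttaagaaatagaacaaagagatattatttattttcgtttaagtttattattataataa
BAT5: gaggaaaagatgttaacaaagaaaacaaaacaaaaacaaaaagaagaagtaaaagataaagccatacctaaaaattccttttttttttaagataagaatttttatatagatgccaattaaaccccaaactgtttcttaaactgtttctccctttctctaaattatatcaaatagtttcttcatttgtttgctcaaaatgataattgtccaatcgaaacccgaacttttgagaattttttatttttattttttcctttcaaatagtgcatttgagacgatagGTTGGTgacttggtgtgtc

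MAM1, the methylthioalkylmalate synthase of short side chains that condenses the keto acid with acetyl-CoA, was among the most abundant members and did not pass the test. It averaged 190 ± 30.5 CPM in wounded isi1-2 and 182 ± 15.1 CPM in unwounded isi1-2, and 185 ± 30.7 CPM in wounded WT and 201 ± 44.2 CPM in unwounded WT (SD, n = 3 each). Its log2 fold change was 0.063 in isi1-2 (SE 0.17; edgeR adjusted p = 0.788) and -0.12 in WT (SE 0.17; edgeR adjusted p = 0.598). MAM3, its neighbour on chromosome 5 and the synthase known to serve all chain lengths, was practically without reads. It had 1 count in replicates 1 and 2 of unwounded isi1-2 and 0 counts in the other 10 libraries, all under the floor of 3 counts, so no fold was computed. In TAIR10.1 none of the 100-base windows of MAM3 exons occurred elsewhere in the genome, and no annotated gene overlapped it. MAM3 is generally known as an expressed gene in Col-0, and the annotation release used for counting is not given in the sources used here, so its counts are not read as absence of expression. Why MAM3 had so few counts was not tested.

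The cytochrome P450 genes of the core pathway did not pass the test for wounding. CYP79F1 turns elongated methionine derivatives into aldoximes, CYP79F2 does so for long chains, and CYP83A1 oxidises the aldoximes. CYP83A1 averaged 228 ± 1.63 CPM in wounded isi1-2 and 233 ± 16.3 CPM in unwounded isi1-2, and 228 ± 49.2 CPM in wounded WT and 220 ± 41.4 CPM in unwounded WT (SD, n = 3 each). CYP79F1 averaged 165 ± 7.24 CPM in wounded isi1-2 and 145 ± 17.4 CPM in unwounded isi1-2, and 170 ± 28.0 CPM in wounded WT and 152 ± 37.2 CPM in unwounded WT. The groups of both genes overlapped in each genotype. The log2 fold changes of CYP79F1 were 0.19 in isi1-2 (SE 0.17; edgeR adjusted p = 0.392) and 0.15 in WT (SE 0.17; edgeR adjusted p = 0.490), and those of CYP83A1 were -0.035 in isi1-2 (SE 0.15) and 0.050 in WT (SE 0.15). Without replicate 1 of unwounded WT, CYP79F1 was called higher in WT with a log2 fold change of 0.37 (edgeR adjusted p = 0.0439).

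CYP79F2 was far less abundant than its tandem neighbour CYP79F1, at 2.56 ± 0.723 CPM in wounded isi1-2 and 1.99 ± 0.349 CPM in unwounded isi1-2, and 2.23 ± 0.381 CPM in wounded WT and 2.08 ± 0.685 CPM in unwounded WT. Per kb of exon, CYP79F1 was 34.4 to 57.1 times as abundant as CYP79F2 over the 12 libraries. This ratio depends on the joined length of all annotated exons, 3272 bases for CYP79F1 and 2018 for CYP79F2. Of the 100-base windows in their exons, 0.0325% of those of CYP79F1 and 0.0581% of those of CYP79F2 occur in the other gene. The log2 fold change of CYP79F2 was 0.36 in isi1-2 (SE 0.26; edgeR adjusted p = 0.267) and 0.10 in WT (SE 0.26; edgeR adjusted p = 0.778). The window before CYP83A1, at chr4:7992430-7992729 (minus strand), is shown because it held the G-box and, on either side of it, ACCTAC on the opposite strand, although the gene did not pass the test.
CYP83A1: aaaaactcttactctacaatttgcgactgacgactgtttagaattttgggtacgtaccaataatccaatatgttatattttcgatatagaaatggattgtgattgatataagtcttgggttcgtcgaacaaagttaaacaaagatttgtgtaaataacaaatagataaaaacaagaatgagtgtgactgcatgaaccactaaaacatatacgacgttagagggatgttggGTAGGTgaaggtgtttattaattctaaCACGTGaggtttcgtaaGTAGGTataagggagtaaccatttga

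**Figure D2:**
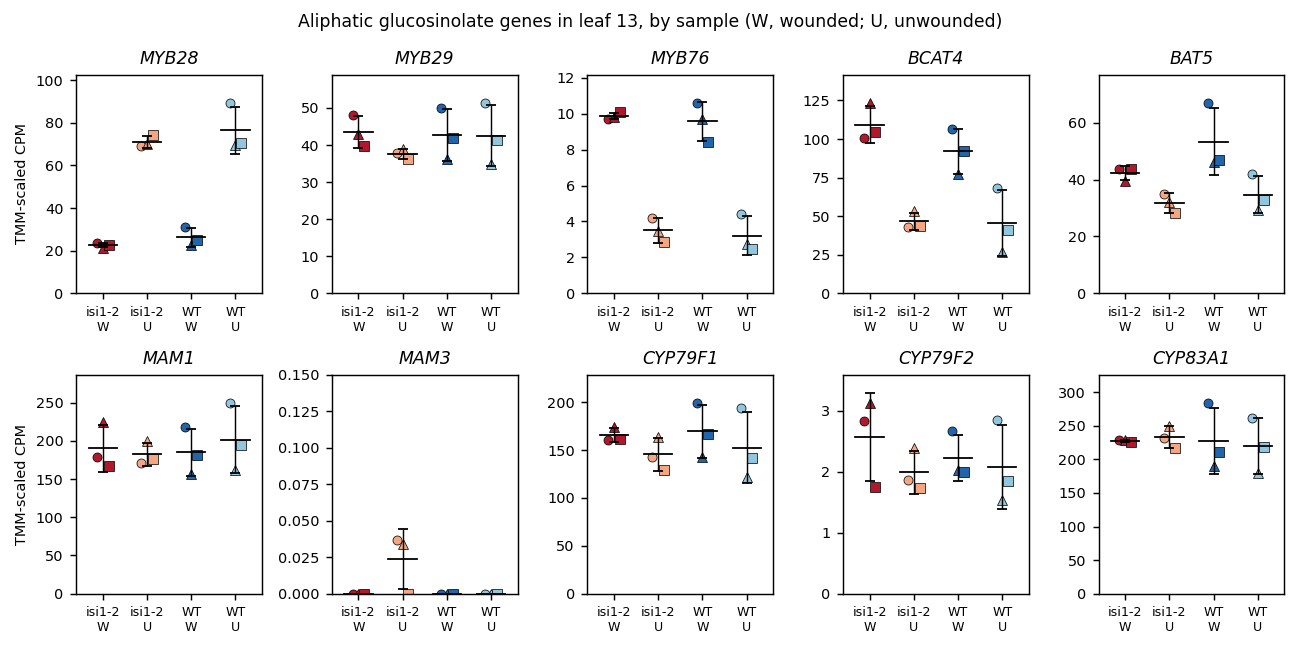
Each panel gives the CPM of 1 gene in every library, with circles, triangles and squares for replicates 1, 2 and 3, a line for the group mean and bars for the SD (n = 3), and with wounded isi1-2, unwounded isi1-2, wounded WT and unwounded WT from left to right. MYB28 is lower and MYB76 and BCAT4 are higher in the wounded groups, and MAM3 is at or near 0 throughout.

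In all, 3 of the 9 tested members passed the test for wounding in isi1-2, 2 upward and 1 downward. Of all 18698 tested genes 50.9% did so, 25.1% upward and 25.7% downward. In WT 4 of 9 members passed, 3 upward and 1 downward, against 46.9% of all genes, 23.9% upward and 23% downward. The wounded and unwounded libraries lay apart for 5 members in isi1-2 and 4 in WT, of which MYB28 was lower and the others higher in wounded plants. Over all genes, 29.8% lay apart upward and a further 29.8% downward in isi1-2, and 27.8% upward and a further 27.9% downward in WT. The number of members called was thus close to or under the background of this broad response and is not a result about the members. Without replicate 1 of both WT groups, 5 of 9 members were called in isi1-2, including MYB29 and BAT5, and 4 of 9 in WT, while 9867 genes in all were called in isi1-2 and 8258 in WT, against 9508 and 8764 with all libraries. In WT the log2 fold changes were then -1.56 for MYB28 (SE 0.080), 1.79 for MYB76 (SE 0.17), 1.33 for BCAT4 (SE 0.21; edgeR adjusted p = 0.00115) and 0.58 for BAT5 (SE 0.098; edgeR adjusted p = 1.04e-04). Both libraries were picked because the members were highest in them, so these counts, SEs and adjusted p-values add no support. The median log2 fold change of the 9 members was 0.21 in isi1-2 and 0.10 in WT, against -0.0038 and -0.0031 over all tested genes.

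Per kb of exon the order of levels was led by CYP83A1 and MAM1 in every group. In unwounded WT CYP83A1 had 115 ± 21.7 CPM per kb and MAM1 98.2 ± 21.5, and their ranges overlapped. CYP79F1, MYB28 and BCAT4 followed with 46.6 ± 11.4, 38.6 ± 5.61 and 31.3 ± 14.7 CPM per kb, neighbours whose ranges overlapped, as did those of BCAT4 and MYB29 at 24.6 ± 4.77. BAT5 at 15.7 ± 2.98, MYB76 at 2.10 ± 0.694 and CYP79F2 at 1.03 ± 0.339 were each apart from the next. In wounded WT BCAT4 took the third place with 63.5 ± 10.0 CPM per kb, with a range that overlapped that of CYP79F1 at 51.8 ± 8.56, and MYB28 the seventh with 13.3 ± 2.21. The same places were taken in wounded isi1-2 by BCAT4 with 75.4 ± 8.40 and MYB28 with 11.4 ± 0.570 CPM per kb, where the range of BCAT4 overlapped that of MAM1 above it at 92.8 ± 14.9. The order depends on the annotated exon lengths. In CPM, CYP79F1 stood above BCAT4 in wounded isi1-2 (165 against 109) and in wounded WT (170 against 92.1).

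The other genes of the pathway were more often higher than lower after wounding. Of 22 genes listed beside the members, 20 were tested. AOP3 had 0 counts in all 12 libraries, which allows up to 3 counts each, and AOP2 was not analysed here. In isi1-2 12 were called higher, 3 lower and 5 not called, with a median log2 fold change of 0.47. In WT 10 were called higher, 2 lower and 8 not called, with a median of 0.67. The background over the whole tested set was 25.1% upward and 25.7% downward in isi1-2. It was 23.9% upward and 23% downward in WT. The departure of this list from the background was not tested. In isi1-2, the largest change was that of GGP1, the gamma-glutamyl peptidase of the core pathway, with 1180 ± 61.3 CPM in wounded and 106 ± 1.26 CPM in unwounded plants (log2 fold change 3.48, SE 0.12; edgeR adjusted p = 4.95e-11). In WT GGP1 averaged 931 ± 19.5 CPM in wounded and 107 ± 24.1 CPM in unwounded plants (log2 fold change 3.12, SE 0.12; edgeR adjusted p = 1.77e-10). The list also holds genes that serve indole glucosinolates, so the rise of GGP1 is not read as particular to the aliphatic branch.

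Among the other chain elongation genes BCAT3, an aminotransferase, fell in isi1-2 (-0.25, SE 0.056; edgeR adjusted p = 0.00154) and in WT (-0.14, SE 0.056; edgeR adjusted p = 0.0435). IMD3, an isopropylmalate dehydrogenase, fell in isi1-2 (-0.19, SE 0.059; edgeR adjusted p = 0.0148) and was at -0.069 in WT, not called. IPMI LSU1, the large subunit of isopropylmalate isomerase, rose in isi1-2 (0.19, SE 0.075; edgeR adjusted p = 0.0433) and was at 0.10 in WT, not called. IPMI SSU3, a small subunit of that isomerase, rose in WT (0.66, SE 0.23; edgeR adjusted p = 0.0399) and was at 0.39 in isi1-2, not called. IMD1, another isopropylmalate dehydrogenase, was at -0.098 in isi1-2 (SE 0.19) and -0.17 in WT (SE 0.19), not called in either. In the core pathway, UGT74B1 and SUR1, the glucosyltransferase and the C-S lyase that also serve indole glucosinolates, rose with log2 fold changes of 1.97 and 1.11 in isi1-2 and 1.99 and 1.10 in WT. UGT74C1, the glucosyltransferase of the aliphatic branch, was at -0.011 in isi1-2 and -0.035 in WT and was not called. The sulfotransferase gene SOT17 rose, with a log2 fold change of 1.51 in isi1-2 (SE 0.19; edgeR adjusted p = 6.22e-05) and 1.40 in WT (SE 0.19; edgeR adjusted p = 1.28e-04). Its counterpart SOT18 rose by less, at 0.65 in isi1-2 and 0.71 in WT. GSTU20, a glutathione transferase assigned to the aliphatic branch, fell in WT (-0.45, SE 0.17; edgeR adjusted p = 0.0491) and was at -0.34 in isi1-2, not called.

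Among side-chain genes FMO GS-OX4, an S-oxygenase, rose with log2 fold changes of 1.57 in isi1-2 (SE 0.16) and 1.10 in WT (SE 0.16), and FMO GS-OX1 with 0.72 in isi1-2 and 0.86 in WT. FMO GS-OX3 fell in isi1-2 (-0.70, SE 0.22; edgeR adjusted p = 0.0253) and was at -0.52 in WT (edgeR adjusted p = 0.0771). FMO GS-OX2 rose in isi1-2 (1.67, SE 0.32; edgeR adjusted p = 8.45e-04) and was at 0.70 in WT (edgeR adjusted p = 0.0713), and the difference between these responses was not called. GSL-OH, a side-chain dioxygenase, averaged 338 ± 22.9 CPM in wounded isi1-2 and 134 ± 8.5 CPM in unwounded isi1-2, and 251 ± 7.51 CPM in wounded WT and 125 ± 21.1 CPM in unwounded WT. It rose in both genotypes, by 1.34 in isi1-2 and 1.01 in WT on the log2 scale.

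**Figure D3:**
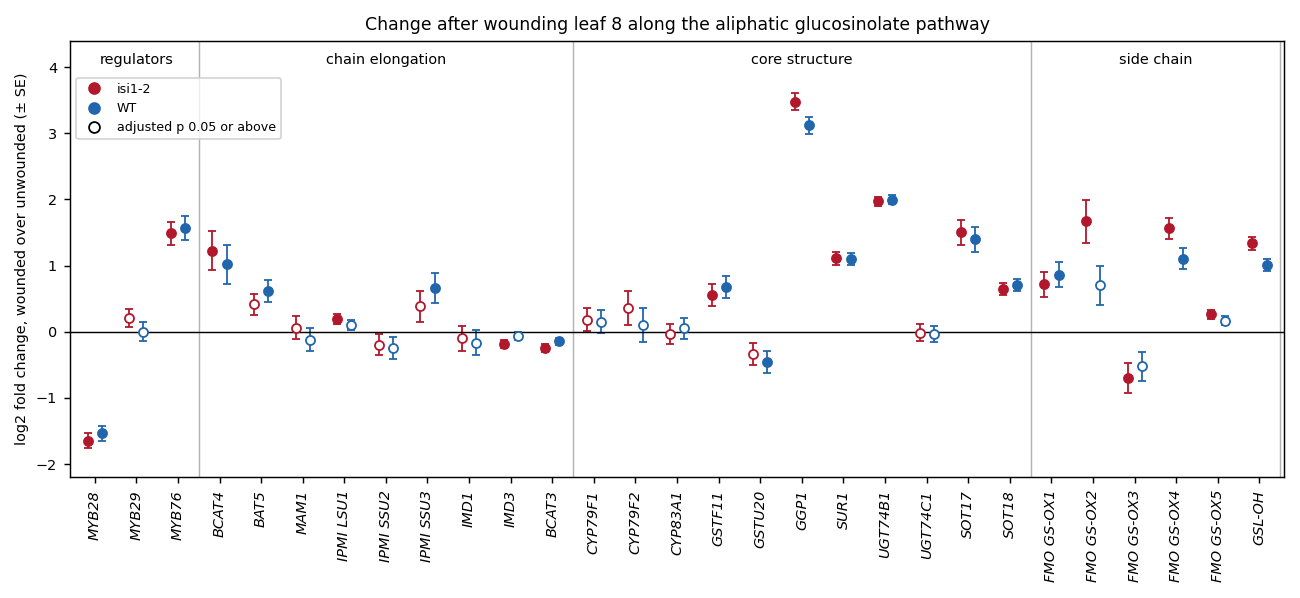
Points give the log2 fold change of wounded over unwounded plants with its SE for 9 members and 20 further genes, ordered by pathway step, for isi1-2 (red) and WT (blue), with open symbols for genes not called. MYB28 is the lowest point at -1.65 in isi1-2 and GGP1 the highest at 3.48 in isi1-2.

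Genes that act beside the aliphatic pathway are given for comparison, without a test of the difference. The indole glucosinolate list had 9 tested genes. In isi1-2 7 of them rose and 1, CYP81F2, fell, and in WT 7 rose and 0 fell, with median log2 fold changes of 3.03 and 2.70. MYB34, an activator of the indole branch, averaged 272 ± 10.5 CPM in wounded isi1-2 and 23.0 ± 1.58 CPM in unwounded isi1-2, and 227 ± 4.53 CPM in wounded WT and 22.3 ± 3.05 CPM in unwounded WT. MYB51 of the same list averaged 3.28 ± 0.221 CPM in wounded and 4.29 ± 1.35 CPM in unwounded isi1-2. In WT it averaged 3.49 ± 0.102 CPM in wounded and 3.16 ± 0.919 CPM in unwounded plants. MYB122 had 0 to 2 counts per library and was not tested. CYP79B3, which makes the indole aldoxime and so corresponds to CYP79F1, rose with log2 fold changes of 4.19 in isi1-2 (SE 0.16; edgeR adjusted p = 1.80e-09) and 3.86 in WT (SE 0.16; edgeR adjusted p = 4.33e-09). Of 9 tested genes of transport and breakdown, 5 rose and 2 fell in isi1-2, and 4 rose and 2 fell in WT, beside the same 50.9% and 46.9% of all genes called. The transporter gene GTR1 rose with 2.85 in isi1-2 (SE 0.18) and 3.16 in WT (SE 0.18), and the nitrile-specifier gene NSP1 with 3.91 in isi1-2 and 2.95 in WT. ESM1 of the same list was called lower, at -1.37 in isi1-2 and -0.97 in WT. Of the 100-base windows in their exons, 19.8% of those of NSP1 and 25.7% of those of ESM1 occur elsewhere in the genome. The counts of NSP1 and ESM1 are less certain for this reason. The myrosinase gene TGG2 was not called in either genotype, and TGG1 was called in isi1-2 with a log2 fold change of only 0.17.

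Of 7 upstream regulators, 3 rose and 2 fell in isi1-2, and 3 rose and 1 fell in WT, where 50.9% of all genes were called in isi1-2 and 46.9% in WT. MYC2 rose with log2 fold changes of 4.61 in isi1-2 (SE 0.16; edgeR adjusted p = 2.23e-10) and 4.22 in WT (SE 0.15; edgeR adjusted p = 5.62e-10), and MYC3 with 1.35 in isi1-2 and 1.05 in WT. MYC4 fell, with log2 fold changes of -0.73 in isi1-2 (SE 0.16; edgeR adjusted p = 0.00192) and -0.85 in WT (SE 0.16; edgeR adjusted p = 6.22e-04). SDI2 was called lower in isi1-2, at -1.37 (SE 0.28; edgeR adjusted p = 0.00157), and was not called in WT. SDI1, a repressor known from sulfur deficiency, was called higher in both genotypes from few reads, 11 to 13 counts in wounded isi1-2 and 2 to 5 in unwounded isi1-2, and 24 to 42 in wounded WT and 6 to 7 in unwounded WT. Its level was 0.50 ± 0.0374 CPM in wounded isi1-2 and 0.123 ± 0.0548 CPM in unwounded isi1-2, and 1.14 ± 0.378 CPM in wounded WT and 0.266 ± 0.0172 CPM in unwounded WT. Markers of leaf vasculature, where chain elongation genes are known to be expressed, also moved with wounding. Of 6 such markers, 3 were called higher and 1 lower in isi1-2 and 3 higher and 2 lower in WT. Their summed level was 480 to 516 CPM in wounded isi1-2 and 394 to 435 CPM in unwounded isi1-2, and 464 to 505 CPM in wounded WT and 365 to 432 CPM in unwounded WT. The 6 did not move together. SWEET12, a sucrose efflux carrier, averaged 67.4 ± 7.98 CPM in wounded isi1-2 and 8.41 ± 1.62 CPM in unwounded isi1-2, and 64.3 ± 8.55 CPM in wounded WT and 8.52 ± 1.83 CPM in unwounded WT, the greater part of the difference in the sum. SULTR2;2, a sulfate transporter, fell, with log2 fold changes of -1.72 in isi1-2 and -1.36 in WT. SUC2, the sucrose transporter of companion cells, was at -0.017 in isi1-2 and -0.024 in WT and was not called in either. Of the 3 mesophyll markers, CA1 was called lower in both genotypes (edgeR adjusted p = 0.0290 in isi1-2 and 0.00155 in WT) and RBCS1A in WT (edgeR adjusted p = 0.0148). Their sum was 43341 to 48175 CPM in wounded isi1-2 and 47602 to 51428 CPM in unwounded isi1-2, and 44115 to 44925 CPM in wounded WT and 47563 to 51305 CPM in unwounded WT. The part of vascular or mesophyll tissue in the changes of the members was not tested.

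No difference between the genotypes was detected for these genes. Between wounded isi1-2 and wounded WT 0 of 9 members were called, where 2.39% of all genes were (edgeR quasi-likelihood test), 0 members had an unadjusted p under 0.05 (16.6% of all genes), and DESeq2 called 0. The log2 differences ran from -0.33 for BAT5 (SE 0.16; edgeR adjusted p = 0.340) to 0.25 for BCAT4 (SE 0.29; edgeR adjusted p = 0.740), and MYB28 was at -0.22 (SE 0.12; edgeR adjusted p = 0.383). BAT5 was the only member whose libraries did not overlap, at 39.4 to 43.9 CPM in wounded isi1-2 and 46.1 to 66.9 CPM in wounded WT, where 10.3% of all genes lay apart in this direction. Between unwounded isi1-2 and unwounded WT 0 of 9 members were called, where 0.128% of all genes were (edgeR), 0 members had an unadjusted p under 0.05 (9.13% of all genes), and DESeq2 called 0. Here the log2 differences ran from -0.18 for MYB29 (SE 0.14; edgeR adjusted p = 0.761) to 0.13 for MYB76 (SE 0.20; edgeR adjusted p = 0.895).

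The wounding response of the members was not found to differ between the genotypes either. The interaction called 0 of 9 members, where 0.0321% of all genes were called (edgeR), with 0 members at an unadjusted p under 0.05 (10.5% of all genes) and 0 by DESeq2. Its log2 values ran from -0.21 for BAT5 to 0.25 for CYP79F2 (SE 0.37; edgeR adjusted p = 0.866), and it was -0.11 for MYB28 (SE 0.16) and -0.085 for MYB76 (SE 0.26). With SEs of 0.16 to 0.41, small differences in response would not have been detected. Of the other pathway genes, GSL-OH was called higher in wounded isi1-2 than in wounded WT by 0.43 on the log2 scale (SE 0.096; edgeR adjusted p = 0.0293), 1 of 20 tested. In the same comparison CYP83B1 (0.46) and SOT16 (0.39) of the indole list were called higher, 2 of 9 tested. NSP1 of transport and breakdown was called higher by 0.57, 1 of 9 tested, where 2.39% of all genes were called. These comparisons share libraries with those of wounding and are not independent of them.

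Replicates within a group varied together across the members. Replicate 1 was above the group mean for 9 of 9 members in wounded WT and in unwounded WT, with median deviations of 0.25 and 0.33 in log2 CPM, and replicate 2 of unwounded WT was below it for all 9, with a median of -0.28. The isi1-2 libraries deviated less, with medians between -0.099 and 0.10. Over the 36 pairs of members, deviations from the group means had a median Pearson's r of 0.80 (0.48 to 0.94) and a median Spearman's rho of 0.72 over the 12 libraries. Without both replicate 1 libraries of WT the median r was 0.61 and the lowest 0.0022, so the closeness rests in part on these libraries. The libraries share depth and scaling, and these values are a description.

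**Figure D4:**
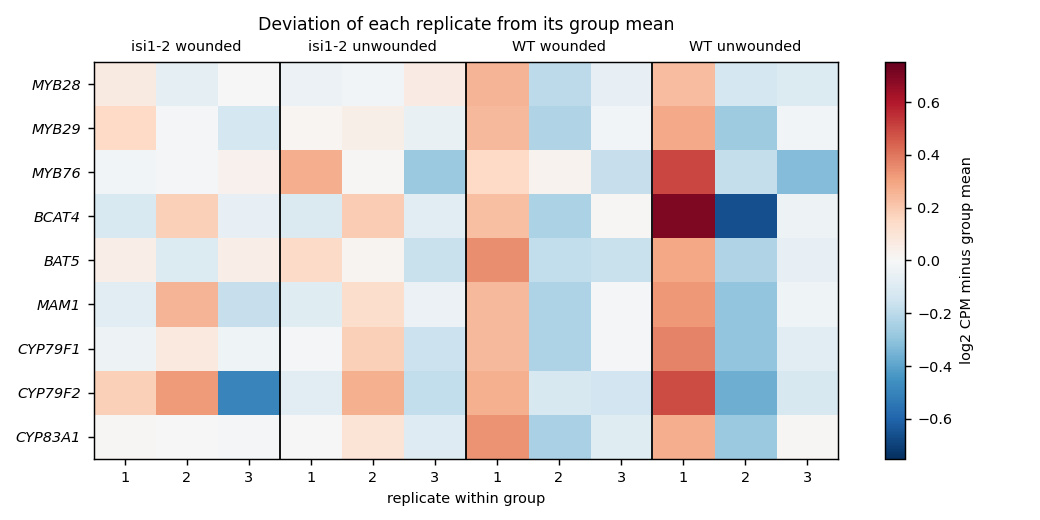
Colours give the log2 CPM of each tested member in each library minus the mean of its group, with blue below and red above it. The columns of replicate 1 of wounded WT and of unwounded WT are red for all 9 members, and that of replicate 2 of unwounded WT is blue for all 9.

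The genes whose deviations were most like the mean of the members were sought among 15824 other genes. The 5 closest over the 12 libraries were IMD1 of chain elongation (r = 0.97), GGT4, a gamma-glutamyl transferase gene (r = 0.97), SPL5, a squamosa promoter-binding-like factor gene (r = 0.96), the sulfotransferase gene SOT17 (r = 0.96) and APS1, an ATP sulfurylase gene of sulfate assimilation (r = 0.95). Without both replicate 1 libraries of WT their r was 0.89 to 0.93, and their Spearman's rho over all 12 was 0.86 to 0.93. Their responses to wounding were unlike. SPL5 was at -0.081 in isi1-2 and -0.026 in WT and was not called, while GGT4 rose by 2.77 in isi1-2 (SE 0.11; edgeR adjusted p = 3.70e-11) and 2.36 in WT (SE 0.11; edgeR adjusted p = 2.99e-10). APS1 rose by 1.04 in isi1-2 and 0.97 in WT.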

How the data were processed

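RNA sequencing was done on leaf 13 in 12 samples. Per the labels' protocols, stranded poly-A libraries were read single-end. The authors deposited raw read counts per gene. The submitters' processing notes name cutadapt 1.8, STAR 2.5.3a, HTSeq 0.9.1 and the build TAIR10. The strand setting is not given in the sources used here. The 5 summary lines of each table were left out. Of all reads tallied, 4.19% to 4.46% stood there as not uniquely aligned.

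Counts were tested with edgeR 4.0.16 in R 4.3.3, with filterByExpr (minimum count 10, minimum total 15; 18698 genes kept), TMM scaling and a robust quasi-likelihood fit of 4 groups over 12 samples. A gene was called at a Benjamini-Hochberg adjusted p under 0.05 over all genes. SE is the absolute log2 fold change over the square root of F. Log2 CPM used a prior count of 2. The fit was tested on simulated data. DESeq2 1.42.0 and other settings were alternatives.

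Members and lists were chosen with earlier results of these data known. All members are named. From other lists, per comparison, genes were drawn from the 4 called genes with the largest absolute change, and not all of these are described. After wounding, CYP79B2, CYP83B1, GTR2, SWEET11 and PP2-A1 were called higher and AG lower in both genotypes, changes not described above. Any gene of the pathway list may also be named. This rule covers BCAT3, IMD3, IPMI LSU1, IPMI SSU3, IMD1, UGT74C1, SUR1, SOT18, GSTU20, FMO GS-OX1, FMO GS-OX3, AOP2 and AOP3. CYP81F2, MYB51 and MYB122 are named outside these rules, and TGG1, TGG2 and SUC2 were added after their values were seen. The 5 most similar genes had a mean log2 CPM of at least 1. Replicate pairs within groups differed beyond counting noise, with a chi-square per degree of freedom of 4.34 to 24.7. The highest values, 24.7 and 15.6, were those of replicate 1 of wounded WT against replicates 2 and 3, which differed from each other by 5.38. In unwounded WT replicates 1 and 3 had the lowest value, 4.34, while replicate 2 differed from them by 11.3 and 6.85. P-values measure the spread between pools of 2 plants. The floor of 3 counts covers counting error only, while SDs and SEs include the spread between pools. Positions, exon lengths and sequences come from RefSeq TAIR10.1, matched by locus identifier.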

Additional observations from a re-analysis of the deposited data

How the results depend on the processing

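MYB28 and MYB76 kept their calls and directions in both genotypes under all 18 alternatives, with log2 fold changes of -1.68 to -1.41 and 1.42 to 1.87 in WT and -1.68 to -1.61 and 1.36 to 1.63 in isi1-2. BCAT4 in WT was called under 15 of 18 (adjusted p 3.44e-04 to 0.0726), and BAT5 in isi1-2, not called in the main analysis, under 8 of 18. The members called ranged from 3 to 5 of 9 in each genotype, and all genes called from 8305 to 9884 in isi1-2 and 7536 to 9079 in WT. In isi1-2 they were 5 with only the groups compared and also 5 without replicate 1 of both WT groups, a setting chosen after seeing the data. For both genotype comparisons and the interaction 0 members were called under every alternative run. Over all genes the deviations of replicates with the same number were weakly correlated between groups (mean correlation 0.0333 to 0.104). The main analysis used no pairing, and no criterion for pairing was set. For the members alone the median deviations of replicates 1, 2 and 3 did line up between wounded WT (0.25, -0.22 and -0.059) and unwounded WT (0.33, -0.28 and -0.064). With the replicate block 4 members were called in each genotype. All genes called ranged from 104 to 1020 (446 in the main analysis) between wounded genotypes, 6 to 91 (24) between unwounded genotypes and 0 to 245 (6) for the interaction; the cause was not tested.

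Of 801 alternative values of member log2 fold changes, 59 had the other sign, 0 of them called in either analysis. When 1 library was left out in turn, wounding in WT gave -0.13 to 0.16 for MYB29, -0.26 to 0.058 for MAM1, -0.080 to 0.40 for CYP79F2 and -0.14 to 0.20 for CYP83A1. Wounding in isi1-2 gave -0.074 to 0.15 for MAM1 and -0.083 to 0.024 for CYP83A1. Between wounded genotypes the ranges were -0.076 to 0.17 for MYB29, -0.039 to 0.13 for MYB76, -0.096 to 0.18 for MAM1, -0.14 to 0.10 for CYP79F1 and -0.12 to 0.20 for CYP83A1. Between unwounded genotypes they were -0.17 to 0.018 for MYB28, -0.024 to 0.43 for MYB76, -0.23 to 0.47 for BCAT4, -0.23 to 0.037 for BAT5, -0.28 to 0.036 for MAM1, -0.20 to 0.15 for CYP79F1, -0.23 to 0.24 for CYP79F2 and -0.043 to 0.23 for CYP83A1. For the interaction they were -0.24 to 0.039 for MYB28, -0.38 to 0.075 for MYB76, -0.22 to 0.48 for BCAT4, -0.18 to 0.17 for CYP79F1, -0.041 to 0.47 for CYP79F2 and -0.23 to 0.11 for CYP83A1. CYP83A1 between wounded genotypes was 0.00204 with DESeq2 size factors in edgeR, 0.018 with the replicate block, 0.00576 with only the groups compared and 0.00191 with DESeq2. Without replicate 1 of both WT groups, signs changed to 0.10 for CYP79F1 and 0.20 for CYP83A1 between wounded genotypes, to 0.017 for MYB28, 0.036 for BAT5, 0.035 for MAM1, 0.14 for CYP79F1 and 0.24 for CYP79F2 between unwounded genotypes, and to -0.095 for BCAT4 and -0.040 for CYP79F1 in the interaction.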
